A study of Rattus norvegicus with 36 samples.

Results

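miR-221 and miR-222 are microRNAs (miRNAs) cut from neighbouring hairpins on the rat X chromosome. They were taken as the rows named rno-miR-221-3p and rno-miR-222-3p in the deposited count table, 2 of its 947 entries and 2 of the 458 entries that carry a rat miRNA name. Small RNA of lung and of whole blood was sequenced in female WAG/RijCmcr rats that were 9 to 10 weeks old at irradiation. The irradiated groups had the whole thorax exposed to X-rays at 15 Gy in 1 session and were sampled 1, 2, 3 or 4 weeks later, and age-matched rats given 0 Gy were sampled at 1 and 4 weeks. Heart, part of the liver and part of the bone marrow lay within the beam along with the lungs, as did blood within the thorax. This limits how far a value in blood can be tied to the lung. Each of the 12 groups had 3 libraries, 36 in all, and according to the methods of the study a library pooled RNA of several rats. The p-values below therefore measure the spread between pools, not between single animals. The 15 Gy groups at 1 and 2 weeks were set against 0 Gy at 1 week, and those at 3 and 4 weeks against 0 Gy at 4 weeks, so these comparisons share their control libraries.

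miRNAs are short RNAs that pair through bases 2 to 8, the seed, with messenger RNAs and lower their translation or stability. miR-221 and miR-222 are best known from vascular cells and from cancer. In human endothelial and blood progenitor cells they repress KIT, the receptor of stem cell factor, and in several cell types they repress CDKN1B, an inhibitor of the cell cycle. The mature sequences are shown because they explain why the pair is treated as a family. Both were found in the RefSeq table of the rat assembly GRCr8, and the seed is in capitals:
rno-miR-221-3p: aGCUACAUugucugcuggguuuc
rno-miR-222-3p: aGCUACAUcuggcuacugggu
The seed GCUACAU was the same in both, and 2 of the 693 mature rat miRNAs in that table carried it. The first 8 bases were identical, and 11 of the 21 positions compared from the 5′ end were identical. The differences began at base 9, after the seed. The first of them is U9C, with the base of miR-221-3p first and positions counted from 1 at the 5′ end.

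The hairpins are shown because they give both arms and the order of the loci on the chromosome. The arms are in capitals, the 5p arm first:
Mir222 hairpin: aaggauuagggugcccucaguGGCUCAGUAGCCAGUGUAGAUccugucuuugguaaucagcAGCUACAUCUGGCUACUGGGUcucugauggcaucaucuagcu
Mir221 hairpin: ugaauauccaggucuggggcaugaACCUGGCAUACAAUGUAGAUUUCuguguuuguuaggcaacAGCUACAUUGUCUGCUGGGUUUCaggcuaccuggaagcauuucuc
In GRCr8 the Mir222 hairpin lay at X, 6022621 to 6022723, on the plus strand, and the Mir221 hairpin at X, 6023182 to 6023290, on the same strand. The hairpins were 458 bases apart. The 5p arms did not share a seed.

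Totals ran between 8132 and 3807051 counts over the lung libraries and between 1156407 and 2340177 over the blood libraries. In 2 lung libraries the depth was far below the others, with 8132 counts in 15 Gy 3 week replicate 3 and 11621 in 0 Gy 1 week replicate 3. They held 2 and 3 counts of miR-221-3p, and they are drawn as open symbols. The red cell miRNA miR-486-5p took 48.1% of the counts in that 15 Gy lung library, 0.693 to 5.79% in the other 17 lung libraries and 83.3 to 95.9% in blood. The tissue labels fitted the marker lists: all 9 lung epithelial miRNAs were higher in lung than in blood and all 4 red cell miRNAs were lower, in 15 Gy and in 0 Gy rats. One column pair is in doubt, since the study's own listing gives blood 15 Gy 1 week replicate 2 and blood 0 Gy 1 week replicate 1 under each other's library number. The table's own labels were followed, and values with these libraries exchanged are given for some of the results they touch, in place or in the closing section. A blood result without such a value was not thereby shown to be unaffected.

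Both miRNAs were more abundant in lung than in blood, and miR-222-3p differed more between the tissues than miR-221-3p did. Levels are given as CPM, counts scaled to a common library size, after TMM scaling, a method that sets libraries on one scale by their common miRNAs. Within the lung scale miR-221-3p averaged 266 ± 52.8 CPM after 15 Gy and 258 ± 66.6 CPM at 0 Gy (SD, n = 12 and 6), and miR-222-3p 615 ± 198 and 710.4 ± 358 CPM. Within the blood scale miR-221-3p averaged 13.8 ± 4.36 CPM after 15 Gy and 10.3 ± 2.13 CPM at 0 Gy. There miR-222-3p averaged 8.49 ± 2.89 and 7.51 ± 1.74 CPM. Lung and blood were scaled separately for these means, so they cannot be compared between the tissues. With all libraries scaled together, miR-221-3p averaged 111 CPM in lung and 22.8 CPM in blood at 0 Gy. Those of miR-222-3p were 307 and 16.8 CPM. After 15 Gy the means were 111 and 34.6 CPM for miR-221-3p, and 252 and 20.8 CPM for miR-222-3p. In lung miR-222-3p stood above miR-221-3p, at ranks 60 and 76 of the 458 rat miRNAs after 15 Gy and at ranks 56 and 80 at 0 Gy. In blood the order was the opposite, with miR-221-3p at ranks 91 and 104 and miR-222-3p at ranks 108 and 110 after 15 Gy and at 0 Gy.

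**Figure D1:**
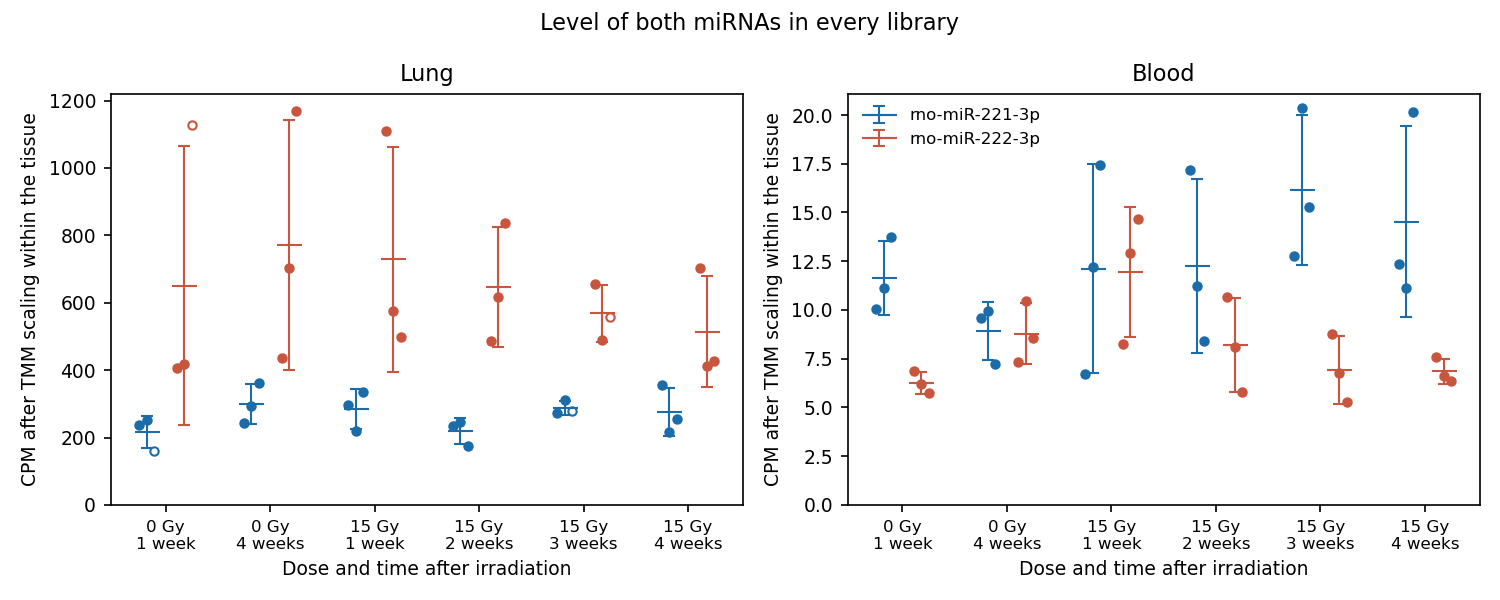
Level of miR-221-3p (blue) and miR-222-3p (red) in every library, in CPM after TMM scaling within the tissue, with the mean and SD of each group of 3 as bars and the 2 shallow lung libraries as open circles. In lung miR-222-3p lies above miR-221-3p in every library, while in blood miR-221-3p has the higher mean in 6 of 6 groups, by 8.91 against 8.78 CPM in the closest, 0 Gy at 4 weeks.

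When the 36 libraries were fitted together, the level in lung over that in blood was higher for both miRNAs. In 0 Gy rats the log2 fold change was 4.18 for miR-222-3p (SE 0.34, 95% interval 3.51 to 4.85, adjusted p = 3.47e-11, quasi-likelihood test of edgeR, Benjamini-Hochberg adjusted over 576 entries) and 2.27 for miR-221-3p (SE 0.27, 1.75 to 2.80, adjusted p = 2.47e-08). In 15 Gy rats it was 3.60 for miR-222-3p (SE 0.23, 3.14 to 4.05, adjusted p = 1.18e-13) and 1.70 for miR-221-3p (SE 0.18, 1.34 to 2.06, adjusted p = 2.69e-09). The same test called 81.4% of all entries in 15 Gy rats and 75% in 0 Gy rats, so a call alone does not mark the pair. The median over all tested entries was itself 1.87 in 15 Gy rats and 1.85 in 0 Gy rats. Against this median miR-222-3p was 1.73 and 2.33 higher in 15 Gy and 0 Gy rats, and miR-221-3p was at −0.17 and 0.42. Of the 576 entries, 36.6% in 15 Gy rats and 34.4% in 0 Gy rats had a larger log2 fold change than miR-222-3p, and 51.4% and 46.0% had a larger one than miR-221-3p.

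The size of this tissue difference depended on the scaling. By the other scalings and by DESeq2, miR-222-3p was 3.10 to 6.10 higher in lung in 15 Gy rats and 3.33 to 7.44 in 0 Gy rats on the log2 scale, and miR-221-3p 1.19 to 4.35 and 1.49 to 5.39. Each of these values was called. For miR-221-3p the call was lost under leave-one-out. TMM measures each library against 1 reference library, and leaving out a library moved the reference to a shallow lung library in 22 of 24 cases in 15 Gy rats and in 11 of 12 in 0 Gy rats. miR-221-3p was then called in 1 of 22 cases, at 0.26 to 0.44, and in 6 of 11, at 0.57 to 0.85, while the median of all entries fell to 0.57 to 0.86 and to 0.34 to 0.61. miR-222-3p was called in all of these cases, at 2.15 to 2.31 and at 2.28 to 2.77. With the reference library kept, every leave-out kept the calls of both miRNAs. In 15 Gy rats the call of miR-221-3p was lost without any 1 library other than blood 1 week replicate 3 and lung 3 week replicates 1 and 3. In 0 Gy rats it was lost without lung 1 week replicate 1, lung 4 week replicate 3, blood 1 week replicate 1 or 2, or blood 4 week replicate 3.

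The ratio of the 2 miRNAs within a library needs no scaling, and it separated the tissues. miR-221-3p had fewer counts than miR-222-3p in 18 of 18 lung libraries and more in 14 of 18 blood libraries. Summed over libraries, miR-221-3p made up 32.1% of the pair in lung (95% exact binomial interval 31.4 to 32.7%, 6220 and 13167 counts) and 60.8% in blood (57.1 to 64.3%, 446 and 288 counts). These intervals cover counting error only. By library the share ran between 12.5 and 40.2% in lung and between 44.8 and 76.0% in blood, so the tissues did not overlap. In 0 Gy rats the mean log2 ratio of miR-221-3p to miR-222-3p was −1.32 ± 0.73 in lung and 0.43 ± 0.54 in blood (SD, n = 6 each). The difference of −1.75 had an exact two-sided permutation p of 0.00216, the smallest that 6 against 6 libraries can give, and 0.00649 after adjustment over 3 ratio tests. Without the shallow lung libraries it was −1.49, and with both doubtful blood libraries exchanged −1.65. Ligation and amplification differ between sequences, so a ratio of counts is not a ratio of molecules.

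**Figure D2:**
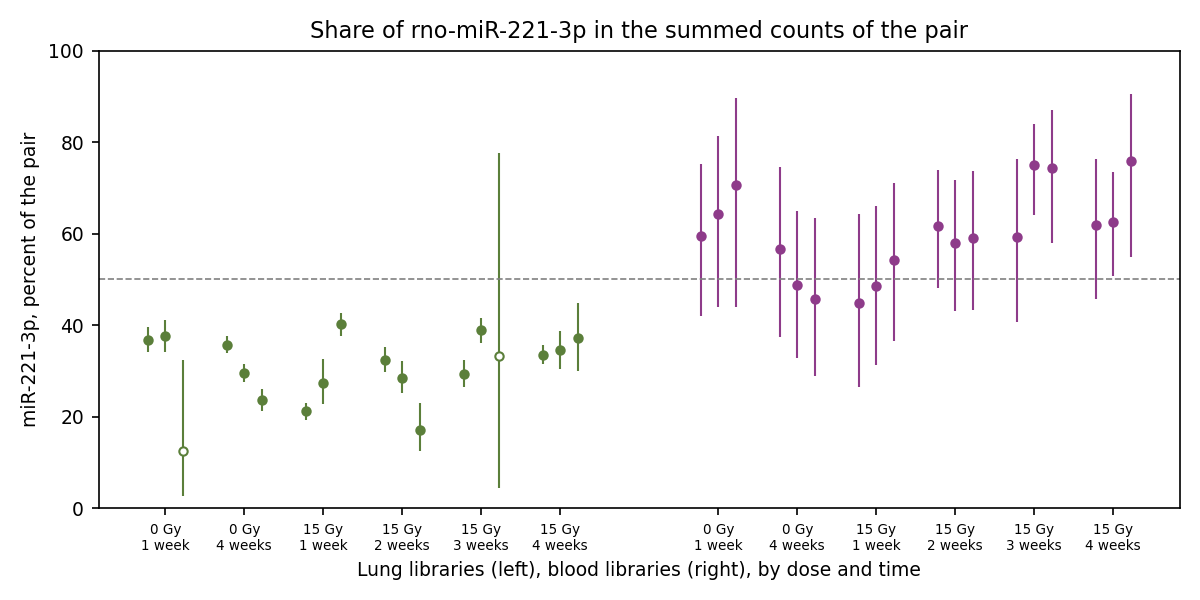
Share of miR-221-3p in the summed counts of the pair, in percent, for each library of lung (green) and blood (purple), with 95% exact binomial intervals, the shallow lung libraries as open circles and a dashed line at equal counts. Every lung library lies at or under 40.2% and every blood library at or over 44.8%, and the blood intervals are wide because a blood library held 5 to 60 counts of either miRNA.

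In blood miR-221-3p had its highest levels at 3 and 4 weeks after 15 Gy and miR-222-3p at 1 week, but neither difference from 0 Gy was called. miR-222-3p had 8.26, 12.9 and 14.7 CPM in the 15 Gy 1 week libraries (16, 18 and 16 counts), against 6.84, 6.18 and 5.73 CPM in the 0 Gy 1 week libraries (15, 10 and 5 counts). All irradiated libraries lay above all controls of 1 week, but the 0 Gy 4 week libraries, at 7.33, 10.4 and 8.56 CPM, overlapped them. Against 0 Gy at 1 week the log2 fold change was 0.91 (SE 0.32, interval 0.28 to 1.54), rank 4 of 289 entries by p. In edgeR's test p was 0.0127 and the adjusted p 0.570, and 0.346% of entries were called in this comparison. Groups of 3 that do not overlap were found for 8.65% of the 289 entries here. With both doubtful blood libraries exchanged, the log2 fold change of miR-222-3p was 0.23, so this difference rested on how those libraries are labelled. miR-221-3p had 6.71, 12.2 and 17.4 CPM after 15 Gy at 1 week, against 10.0, 11.1 and 13.7 CPM at 0 Gy. These groups overlapped, and its log2 fold change was 0.05 (SE 0.39, adjusted p = 0.981 by edgeR). The sign of that value changed with the doubtful libraries exchanged. Summed leukocyte miRNAs ran between 130 and 188.2 CPM in these 15 Gy libraries and between 188.6 and 424 CPM in the 0 Gy libraries, over 5 listed miRNAs of which none was at 0 throughout. Each group held 1 of the doubtful libraries, and the sums were not taken with these exchanged. Of the 5 miRNAs, 1 was higher and 4 lower in value, at log2 fold changes between −2.70 and 0.01, none called. Whether the leukocyte level has a part in the values of the pair was not tested. From bulk blood libraries alone, fewer cells of a type and less RNA per cell cannot be told apart. The study also counted blood cells and reports fewer white cells after 1 week. Those counts were not matched to these libraries here.

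At 2 weeks neither miRNA was separated from its controls in blood. miR-221-3p had 17.2, 11.2 and 8.39 CPM after 15 Gy, against 10.0, 11.1 and 13.7 CPM at 0 Gy. miR-222-3p had 10.7, 8.12 and 5.81 CPM after 15 Gy, against 6.84, 6.18 and 5.73 CPM at 0 Gy. The groups overlapped for both, where 21.1% of the entries had groups that did not. The log2 fold changes were 0.08 for miR-221-3p (SE 0.38, interval −0.67 to 0.83) and 0.37 for miR-222-3p (SE 0.32, −0.24 to 0.99), with adjusted p = 0.977 and 0.739 by edgeR, which called 0.346% of entries. With the doubtful libraries exchanged they were −0.01 and −0.03. The leukocyte sum was higher at this time, 384 to 611 CPM after 15 Gy and 189 to 424 CPM at 0 Gy, with overlap. Of the 5 listed leukocyte miRNAs, however, 2 were higher and 3 lower in value after 15 Gy. Their log2 fold changes ran between −2.70 and 1.85, with a median of −0.15.

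At 3 weeks miR-221-3p stood higher in blood, without passing the test over all entries. It had 12.8, 20.3 and 15.3 CPM after 15 Gy (19, 60 and 29 counts), against 9.58, 9.94 and 7.21 CPM at 0 Gy at 4 weeks (17, 20 and 16 counts). Every 15 Gy library lay above every 0 Gy library of 4 weeks, and groups without overlap were found for 27.3% of all entries. The 0 Gy 1 week libraries, at 10.0, 11.1 and 13.7 CPM, overlapped these 15 Gy libraries. Against both 0 Gy groups pooled the log2 fold change of miR-221-3p was 0.67. Against 0 Gy at 4 weeks alone it was 0.86 (SE 0.38, interval 0.11 to 1.60). In the test of edgeR p was 0.0403 and the adjusted p 0.319. edgeR called 0% of entries here, with 43 at an unadjusted p under 0.05, and DESeq2 called 4, neither miRNA of the pair among them. miR-222-3p went the other way in value, at 8.75, 6.78 and 5.27 CPM after 15 Gy and 7.33, 10.4 and 8.56 CPM at 0 Gy, with a log2 fold change of −0.34 (SE 0.31, interval −0.95 to 0.27). Its groups overlapped. The leukocyte sum ran between 209 and 314 CPM after 15 Gy and between 170 and 341 CPM at 0 Gy.

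The 4 week values in blood were like those at 3 weeks. miR-221-3p had 12.3, 11.1 and 20.2 CPM after 15 Gy, against 9.58, 9.94 and 7.21 CPM at 0 Gy, again with no overlap, which was found for 10.4% of entries. The 0 Gy 1 week libraries, which reached 13.7 CPM, overlapped here too. Against both 0 Gy groups pooled the log2 fold change of miR-221-3p was 0.50. Against 0 Gy at 4 weeks alone it was 0.68 (SE 0.38, interval −0.07 to 1.43, adjusted p = 0.752 by edgeR). miR-222-3p had 7.59, 6.62 and 6.37 CPM after 15 Gy, against 7.33, 10.4 and 8.56 CPM at 0 Gy, and a log2 fold change of −0.35 (SE 0.31, interval −0.96 to 0.26, adjusted p = 0.847 by edgeR). edgeR called 0% of entries at 4 weeks, with 22 at an unadjusted p under 0.05, and DESeq2 called 4, neither of the pair among them. Over the 4 times together miR-221-3p was at 0.42 (SE 0.24, interval −0.05 to 0.89, adjusted p = 0.374) and miR-222-3p at 0.15 (SE 0.19, −0.23 to 0.53, adjusted p = 0.831), where edgeR called 1.04% of entries. With the doubtful libraries exchanged the value of miR-222-3p was −0.12.

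**Figure D3:**
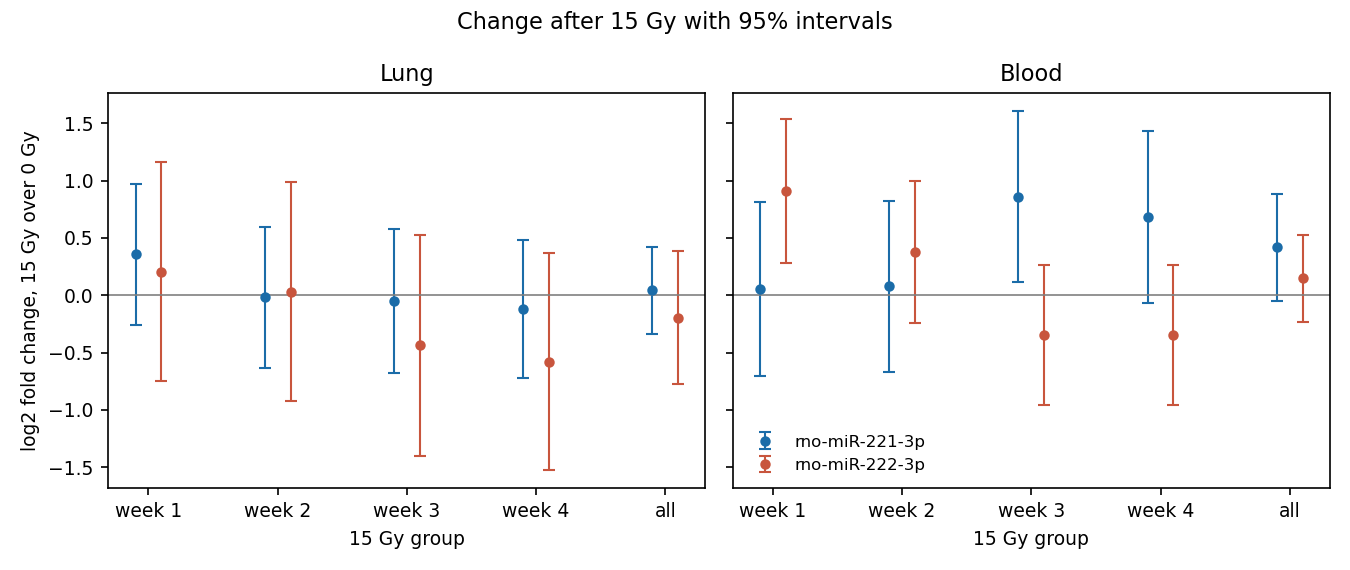
Log2 fold change of miR-221-3p (blue) and miR-222-3p (red) in 15 Gy over 0 Gy rats at each week and over all weeks, for lung and blood, with 95% intervals from edgeR. Intervals that leave out 0 are those of miR-222-3p in blood at 1 week, 0.28 to 1.54, and of miR-221-3p in blood at 3 weeks, 0.11 to 1.60, and neither passed the test over all entries.

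In lung no change of either miRNA after 15 Gy was called at any week. At 1 week miR-221-3p had 298, 218 and 335 CPM after 15 Gy, against 237, 251 and 161 CPM at 0 Gy. miR-222-3p had 1111, 576 and 499 CPM after 15 Gy, against 405, 418 and 1129 CPM at 0 Gy, the last from a shallow library with 21 counts. Both miRNAs overlapped between the groups, where 15.2% of 499 entries did not. The log2 fold changes were 0.36 for miR-221-3p (SE 0.31, interval −0.26 to 0.97) and 0.20 for miR-222-3p (SE 0.49, −0.75 to 1.16).

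At 2 weeks the lung values were the closest to their controls. miR-221-3p had 234, 247 and 174 CPM after 15 Gy, with a log2 fold change of −0.02 (SE 0.31, interval −0.63 to 0.60). miR-222-3p had 485, 618 and 838 CPM after 15 Gy and a log2 fold change of 0.03 (SE 0.49, −0.93 to 0.99). Again both overlapped the 0 Gy 1 week libraries, where 15.8% of entries did not.

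At 3 and 4 weeks miR-222-3p had lower means in irradiated lungs, within the spread of its libraries. It had 656, 490 and 558 CPM at 3 weeks and 704, 412 and 428 CPM at 4 weeks after 15 Gy, against 437, 702 and 1170 CPM at 0 Gy. Its log2 fold changes were −0.44 (SE 0.49, interval −1.40 to 0.53) and −0.58 (SE 0.48, −1.53 to 0.36). miR-221-3p had 273, 311 and 279 CPM at 3 weeks and 356, 218 and 254 CPM at 4 weeks, against 244, 293 and 362 CPM at 0 Gy, with log2 fold changes of −0.05 (SE 0.32, −0.68 to 0.58) and −0.12 (SE 0.31, −0.72 to 0.49). All of these groups overlapped, where 12.4% of entries at 3 weeks and 11.8% at 4 weeks did not. Over the 4 times the values were 0.04 for miR-221-3p (SE 0.19, −0.33 to 0.42) and −0.20 for miR-222-3p (SE 0.30, −0.78 to 0.39).

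Adjusted p-values of the pair in lung were between 0.725 and 1 by edgeR over the weekly comparisons. edgeR called 0% of entries at each week and over the 4 weeks. At an unadjusted p under 0.05 there were 52, 26, 39 and 48 entries at 1, 2, 3 and 4 weeks and 45 over all weeks, and DESeq2 called 6, 6, 4, 11 and 6, neither miRNA of the pair among them. miR-222-3p was the more variable of the pair in lung, with a biological coefficient of variation of 0.460 against 0.327 for miR-221-3p and a median of 0.451 over all entries. In blood both were less variable than the median of 0.420, with 0.302 for miR-221-3p and 0.219 for miR-222-3p.

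The change after 15 Gy in lung minus that in blood was −0.57 for miR-221-3p (SE 0.31) and −0.59 for miR-222-3p (SE 0.37) on the log2 scale. Neither passed the interaction test, with adjusted p = 0.515 and 1.00 by edgeR, which called 0.174% of entries. These SEs leave out the Poisson bound that edgeR sets on p, so an SE and its p can disagree. The ratio of the pair did not separate irradiated from control libraries either. In lung the mean log2 ratio was −1.16 ± 0.50 after 15 Gy and −1.32 ± 0.73 at 0 Gy (SD, n = 12 and 6), with an exact two-sided permutation p of 0.579 for the difference of 0.16. Without the shallow lung libraries this difference was −0.13. In blood the mean log2 ratio was 0.68 ± 0.61 after 15 Gy and 0.43 ± 0.54 at 0 Gy, with an exact two-sided permutation p of 0.415 for the difference of 0.24. With both doubtful blood libraries exchanged this difference was 0.40. By group the share of miR-221-3p in blood was 49.5, 59.7, 71.5 and 64.8% from the first to the last week in 15 Gy rats. In 0 Gy rats it was 63.4% at 1 week, and at 4 weeks both miRNAs had 53 counts.

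No difference of the pair with time was called. In 0 Gy rats at 4 weeks over 1 week, miR-221-3p was at −0.37 (SE 0.39) and miR-222-3p at 0.48 (SE 0.32) in blood, where edgeR called 0.346% of entries. The mean of miR-221-3p in blood was 8.91 ± 1.48 CPM at 4 weeks and 11.6 ± 1.90 CPM at 1 week in 0 Gy rats, the one pair of neighbours in the order of group means that lay further apart than the larger SD. In lung the values were 0.44 (SE 0.31) and 0.28 (SE 0.49), where edgeR called 0% of entries, 36 had an unadjusted p under 0.05 and DESeq2 called 6, neither of the pair among them. Among irradiated rats, weeks 3 and 4 over weeks 1 and 2 gave −0.51 for miR-222-3p in blood (SE 0.22, interval −0.94 to −0.08). In the test of edgeR p was 0.0360 and the adjusted p 0.616. The value of miR-221-3p was 0.33 (SE 0.27). edgeR called 0% of entries in that comparison, with 16 at an unadjusted p under 0.05 and 5 called by DESeq2, neither of the pair among them. In lung the values were 0.18 for miR-221-3p (SE 0.22) and −0.34 for miR-222-3p (SE 0.34), where edgeR called 0.401% of entries.

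No relation between the 2 miRNAs from library to library was found with all libraries kept. Over 18 libraries of log2(CPM + 1), Pearson's r was 0.02 in lung and 0.06 in blood, and Spearman's rho was 0.25 and −0.04. The 4 permutation p-values were 0.930, 0.816, 0.309 and 0.883, and each was 0.930 after adjustment. Leaving out the 2 libraries farthest from the median of miR-221-3p gave r = 0.62 in lung and 0.25 in blood, so the lung value rested on those libraries, of which 1 is shallow. Without both shallow libraries instead, r in lung was 0.34 over 16 libraries. In blood r was 0.64 when libraries were scaled by their totals (adjusted p = 0.0160, permutation test), of which miR-486-5p made up 83.3 to 95.9%. Ranked by r, miR-222-3p was 157 of 241 abundant rat miRNAs compared with miR-221-3p in lung and 63 of 140 in blood. In the other direction miR-221-3p was 77 of 241 compared with miR-222-3p in lung and 68 of 140 in blood.

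**Figure D4:**
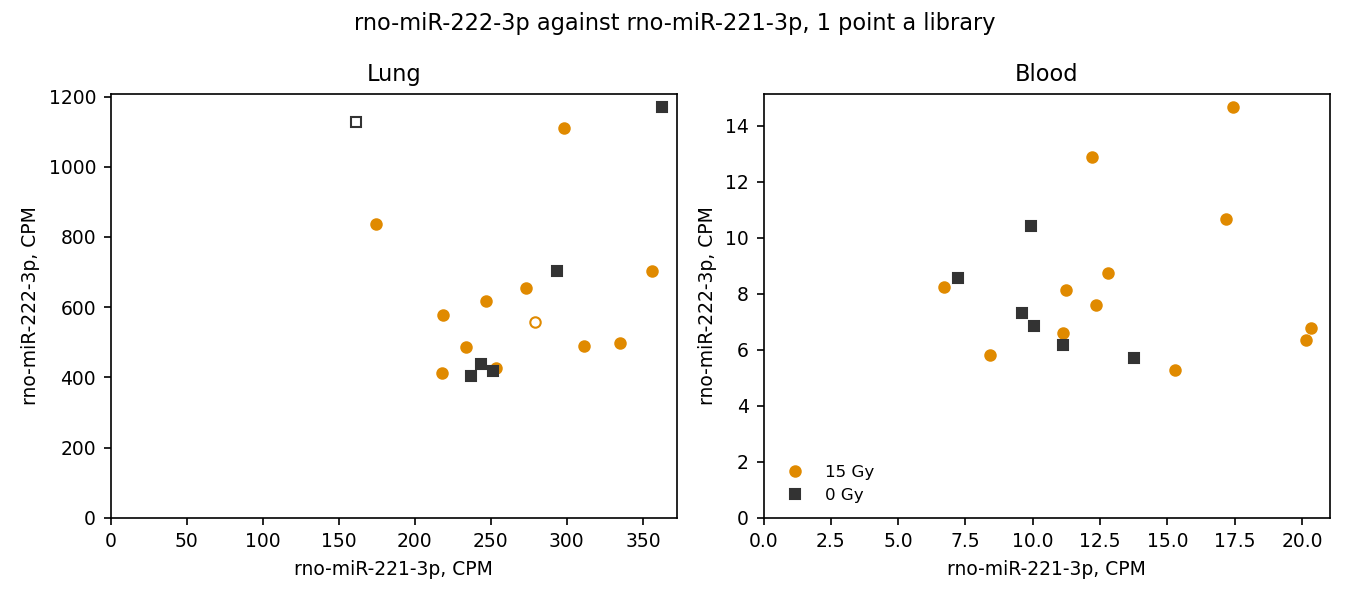
Level of miR-222-3p against that of miR-221-3p in each library of lung and blood, in CPM, with 15 Gy as orange circles, 0 Gy as black squares and shallow lung libraries as open symbols. No line runs through either cloud, with Pearson's r of 0.02 in lung and 0.06 in blood over 18 libraries each.

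The rat miRNAs most like miR-221-3p over the 18 lung libraries were miR-103-3p (r = 0.78), miR-1843-5p (0.75), miR-98-5p (0.74), miR-30c-2-3p (0.72) and let-7e-5p (0.70). In blood they were miR-103-3p (0.69), miR-126a-3p (0.66), miR-181d-5p (0.62), miR-146a-5p (0.61) and miR-181c-3p (0.60). miR-126a-3p is the best known endothelial miRNA, but it averaged 4.57 CPM in blood. Those most like miR-222-3p were miR-140-3p (0.77), miR-25-3p (0.74), miR-151-3p (0.73), miR-378a-3p (0.73) and miR-92b-3p (0.72) in lung. In blood they were miR-361-5p (0.63), miR-339-5p (0.56), miR-30c-1-3p (0.43), miR-500-3p (0.41) and miR-133a-3p (0.40). The libraries share depth and composition, so these values describe likeness only, and miR-103-3p was the one name on both lists of miR-221-3p.

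The other strand of each hairpin, the 5p arm, shows which arm gave more reads. The 5p seeds are in capitals:
rno-miR-221-5p: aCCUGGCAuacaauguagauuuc
rno-miR-222-5p: gGCUCAGUagccaguguagau
The 5p arm of miR-221 made up 541 of the 6761 counts of both arms in lung (95% exact binomial interval 7.37 to 8.67%) and 2.19% in blood (10 of 456, 1.06 to 4.00%). The 5p arm of miR-222 made up 0.197% in lung (26 of 13193, 0.129 to 0.289%) and was not seen in blood (0 of 288, which allows a share of up to 1.04% as 3 counts of the total, or 1.27% by the exact binomial interval). These intervals cover counting error only, and the share varied between libraries. In lung 15 Gy 4 week replicate 2, miR-221-5p and miR-221-3p had 54 and 183 counts. In lung 15 Gy 1 week replicate 3 they had 14 and 643. Whether the share differs between tissues was not tested. Summed over libraries, the 3p arm was thus the main product of both loci in both tissues. miR-221-5p was tested in lung after 15 Gy and was not called, with log2 fold changes between −0.87 (SE 0.70) at 1 week and 1.13 (SE 0.65) at 4 weeks.

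Other miRNAs known from vessels were not called after 15 Gy either. At each week edgeR called 0% of all entries in lung and at most 0.346% in blood. The vascular list held 11 miRNAs, among them miR-126a of endothelium and miR-143 and miR-145 of smooth muscle. It also held miR-21-5p, miR-10a-5p, miR-23a-3p, miR-24-3p and miR-27a-3p, so its medians are not a measure of vessel cells alone. None of the 11 tested in lung and none of the 8 tested in blood was called by edgeR at any week after 15 Gy, with list medians between −0.17 and 0.26 in lung and between −0.13 and 0.17 in blood, against medians over all entries between −0.18 and 0.15 and between −0.04 and 0.09. Lung over blood, edgeR called 81.4% of all 576 entries in 15 Gy rats and 75% in 0 Gy rats, 293 and 286 entries of them higher. Of the vascular list, 10 of 11 were called higher in 15 Gy rats, with a median log2 fold change of 5.95, and 10 of 11 in 0 Gy rats, with a median of 6.48. The remaining one, miR-21-5p, was called lower in 15 Gy rats, at −0.73 (SE 0.26, adjusted p = 0.0108 by edgeR), and was at −0.35 in 0 Gy rats, not called. The values of the pair, 3.60 and 4.18 for miR-222-3p and 1.70 and 2.27 for miR-221-3p, lay below both medians. In blood 1 of 5 leukocyte miRNAs was called lower after 15 Gy over all weeks, where edgeR called 1.04% of 289 entries, 1 higher and 2 lower. No lung epithelial miRNA had enough counts in blood to be tested, with a summed level of 5.56 to 20.6 CPM.

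The count table also lists predicted miRNAs by position, and 3 of them had counts close to those of the pair in lung. They were found after their values were seen and lie outside the rule by which miRNAs were named. An entry at X, 14935599 to 14935745 in the rat build rn4 held 6335 counts in lung and 480 in blood, where miR-221-3p held 6220 and 446. It was within 15% of miR-221-3p in 16 of 16 lung libraries of normal depth. An entry inside that span, at X, 14935630 to 14935715, held 6232 counts in lung and was within 15% of miR-221-3p in 14 of 16 of these libraries, but it held 21 counts in blood. The entry at X, 14935043 to 14935171, held 13139 counts in lung and 278 in blood, where miR-222-3p held 13167 and 288. It was within 15% of miR-222-3p in 15 of 16 such libraries, and the exception was lung 0 Gy 1 week replicate 1, with 1 count against 745. The starts of this entry and of the first lay 556 bases apart in rn4, and those of the Mir222 and Mir221 hairpins 561 bases apart in GRCr8. Whether the same reads were counted again under these positions was not tested, and no rn4 annotation was used here.

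**Figure D5:**
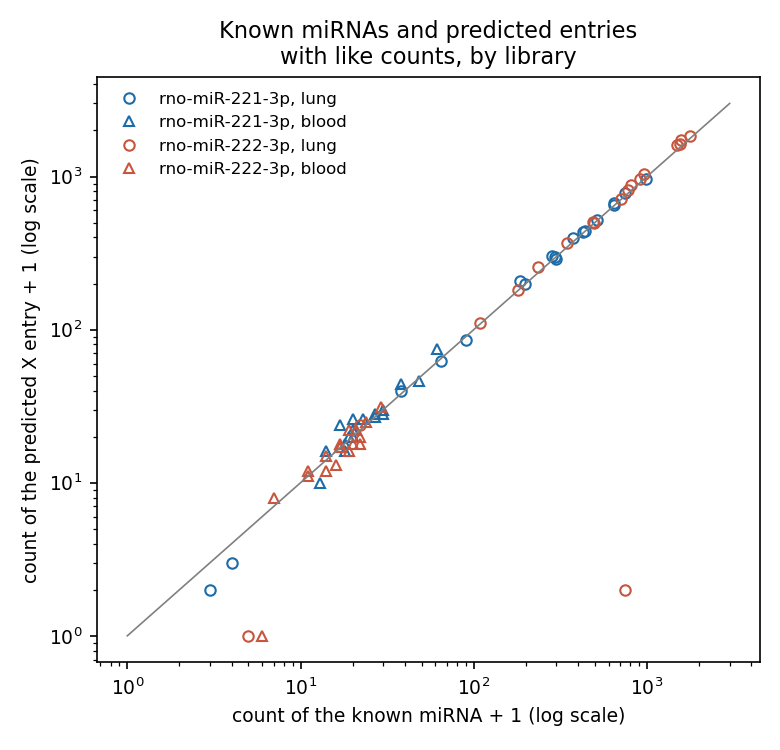
Count of the predicted X chromosome entry (for miR-221-3p the wider one) against that of the known miRNA in each library, both plus 1 on log scales, with miR-221-3p in blue, miR-222-3p in red, lung as circles, blood as triangles and a line at equal counts. Nearly all points follow the line, and the red circle far under it is lung 0 Gy 1 week replicate 1, with 1 count of the entry and 745 of miR-222-3p.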

How the data were processed

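Small RNA libraries were made by the authors with a TruSeq kit from RNA pooled over rats, trimmed with Trim Galore 0.2.5 and mapped with Bowtie 1.1.1 against miRBase and rn4 (submitters' processing notes and methods of the study). The deposited table holds raw counts, not normalized, per known miRNA, homolog or predicted locus in 36 libraries. Columns were matched to samples by their labels. Reads have no molecular identifiers.

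From these counts, edgeR 4.0.16 (R 4.3.3) gave the main test: filterByExpr, TMM, 1 quasi-likelihood fit per tissue over 18 libraries and 1 over all 36, and Benjamini-Hochberg adjustment with a threshold of 0.05. Standard errors were derived from the F value, and intervals are 1.96 SE. The fits were tested on simulated data. Ratios of counts plus 0.5 were compared by exact permutation (scipy 1.17.1), correlations by 100000 resamples. Alternatives were no count filter, RLE size factors, library totals, miR-191a-5p as the scale, DESeq2 1.42.0, a replicate block, pooled controls, each replicate left out, no shallow libraries, exchanged blood libraries, miR-486-5p left out, and edgeR without its Poisson bound. The last, the exchange and shallow libraries for the ratio, and the kept scaling reference were added after the data were seen.

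Named miRNAs were the pair, its other arms, miRNAs with the same seed, and per member and tissue the 5 rat miRNAs with the highest r. Members and marker lists (vascular, red cell, leukocyte, lung epithelial) were chosen with earlier results of these data known. Replicate numbers come from the labels, and samples with 1 number deviated together (every pair over 0.1) in 1 of 10 comparisons, lung 15 Gy 2 week against 0 Gy 1 week. These comparisons were all within a tissue. Whether lung and blood libraries came from the same rats was not checked, and the tests of lung against blood treated them as independent. Depth ran between 8132 and 3807051 counts in lung and between 1156407 and 2340177 in blood, so 1 count in a shallow lung library is worth far more CPM than elsewhere. No library repeated another.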

Additional observations from a re-analysis of the deposited data

How the results depend on the processing

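Of 39 results, the 5 that were called kept their direction under all alternatives. Under alternatives that leave out no library they kept their calls too. The call of miR-221-3p in lung over blood was lost in 26 leave-one-out fits, in which TMM had taken a shallow lung library as its reference. Over the leave-one-out fits with the reference chosen anew its log2 fold change was 0.26 to 1.71 in 15 Gy rats and 0.57 to 2.25 in 0 Gy rats. With the fits that kept the reference, the upper ends were 1.76 and 2.37. The replicate block changed no call. With it, lung over blood was 1.71 for miR-221-3p and 3.59 for miR-222-3p in 15 Gy rats, and 2.27 and 4.17 in 0 Gy rats. It gave 0.93 for miR-222-3p in blood at 1 week.

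Sign changes fell on 21 results, none of them called, and where no sentence says otherwise the cause was not tested. For 15 Gy over 0 Gy in blood, miR-221-3p at 1 week was −0.0417 without the count filter, −0.13 with RLE size factors, −0.0295 with library totals, −0.54 with miR-191a-5p as the scale, −0.11 with DESeq2 and −0.13 with the doubtful libraries exchanged. The exchange also gave −0.0112 for miR-221-3p and −0.0280 for miR-222-3p at 2 weeks, and −0.12 for miR-222-3p over all weeks. miR-222-3p in blood was 0.37 at 3 weeks and 0.10 at 4 weeks with the miR-191a-5p scale, 0.20 at 4 weeks with library totals, and −0.20 in 0 Gy rats at 4 weeks over 1 week with the miR-191a-5p scale.

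For 15 Gy over 0 Gy in lung, miR-222-3p at 2 weeks was −0.25 without the count filter, −0.19 with RLE, −0.52 with library totals, −0.82 with miR-191a-5p, −0.0891 with DESeq2 and −0.11 against pooled controls. At 1 week it was −0.29 with library totals and −0.69 with miR-191a-5p, and over all weeks 0.0594 without the shallow libraries. miR-221-3p over all weeks was −0.0175 without the count filter, −0.00485 with RLE, −0.0260 with library totals, −0.50 with miR-191a-5p, −0.0311 with DESeq2 and −0.0541 without the shallow libraries. It was −0.00201 at 1 week with miR-191a-5p, 0.23 and 0.0501 at 3 and 4 weeks with library totals, and 0.17 and 0.10 against pooled controls. On the miR-191a-5p scale the median of all 499 lung entries over all weeks was itself −0.50. With TMM, miR-191a-5p was at 0.67 in lung over all weeks (SE 0.25, interval 0.17 to 1.17, adjusted p = 0.379 by edgeR). With library totals, 4 weeks over 1 week in 0 Gy lungs was −0.20 for miR-221-3p and −0.60 for miR-222-3p. With miR-191a-5p, weeks 3 and 4 over weeks 1 and 2 was −0.10 for miR-221-3p. The lung ratio was −0.13 without the shallow libraries, and the lung correlation −0.0236 on deviations from group means. The blood correlation was 0.64 with library totals, where it passed the threshold.

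Leave-one-out ranges that crossed 0 were, in blood, −0.37 to 0.19 at 1 week and −0.21 to 0.31 at 2 weeks for miR-221-3p. In lung they were −0.32 to 0.0639, −0.24 to 0.13 and −0.35 to 0.17 at 2, 3 and 4 weeks and −0.0595 to 0.11 over all weeks for miR-221-3p. For miR-222-3p in lung they were −0.23 to 0.60, −0.40 to 0.44 and −0.80 to 0.00976 at 1, 2 and 3 weeks, −0.40 to 0.0744 over all weeks and −0.27 to 0.70 between the 0 Gy groups. That of the lung ratio was −0.10 to 0.28. In blood the depth leaves 5 to 60 counts of a member in a library, and 2 shallow lung libraries hold 2 to 21.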
